A study of Homo sapiens and Mus musculus with 24 samples.

Results

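Caco-2 cells in which DNMT3A had been deleted (ΔDNMT3A) were compared with wild-type Caco-2 cells (WT) by RNA-seq, across every gene that could be tested. The members were taken by the genotype label and the human count data: 4 WT and 4 ΔDNMT3A libraries, or 8 of the 24 samples of the series, with 16654 of 58051 listed genes passing the filter on low counts. Caco-2 is a human colorectal adenocarcinoma line that can take on features of absorptive enterocytes. Both groups were kept in MEM medium with foetal calf serum, and the labels name no treatment. ΔDNMT3A cells had been made by transient transfection with a CRISPR/Cas9 vector against the sequence that isoforms DNMT3A1 and DNMT3A2 share, followed by selection for the vector's CD4 surface marker and serial dilution. By the study's methods, ablation of the protein was assessed on western blots. ΔDNMT3A is thus the progeny of 1 expanded clone, whereas no cloning step is described for WT, so that the deletion and the history of the clone cannot be told apart in this comparison. The question put to these libraries was which transcripts an intestinal epithelial cell line gains and loses without this enzyme.

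DNMT3A is 1 of the 2 enzymes that methylate cytosines of CpG dinucleotides de novo, the other being DNMT3B. DNMT1, recruited by UHRF1, copies methylation onto the new strand after replication. Methylation of CpG-rich promoters goes with stable silencing, for which germline genes, imprinted genes and clustered protocadherins are textbook cases, while methylation in gene bodies is common in transcribed genes. In the intestinal epithelium, DNA methylation patterns differ between stem cells of the crypt and the differentiated cells that replace them.

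The WT libraries held 26653192 to 37799624 counts on genes and the ΔDNMT3A libraries 30242279 to 42161299. Reads carried no molecular identifiers, so that intervals and limits from these depths cover counting error only. Replicate libraries differed by more than counting noise (chi-square over degrees of freedom 2.56 to 3.6 in WT and 3.37 to 5.65 in ΔDNMT3A), and none had been deposited in duplicate. No source says whether the libraries of a group came from separate cultures, and p-values then measure the spread between these samples, which may be technical. The first principal component took 85.9% of the variance and set all ΔDNMT3A libraries apart from all WT libraries. Levels are CPM, which divide the count of a gene by the normalized size of its library, means are given ± SD over the 4 libraries of a group, and fold changes are on the log2 scale, ΔDNMT3A against WT. Bulk counts do not tell fewer expressing cells from less RNA per cell.

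The libraries carried most markers of the colonocyte line. Of 15 such markers, 13 were tested, while CDX1 and GPA33 did not reach the level for testing. The summed level of the list was 10895 to 11128 CPM in WT and 13465 to 14041 CPM in ΔDNMT3A. Much of this sum and of its rise came from the keratins KRT8 and KRT18, whose levels are given below. Most markers of other cell types did not reach the level for testing, but PDGFRA, a growth factor receptor of fibroblasts, was well expressed. Among 14 blood cell markers, the leukocyte genes PTPRC, CD3D, CD3E and MS4A1 did not reach the level for testing, and the 3 tested were CD14, CSF1R and ITGAM. CD14, the co-receptor for lipopolysaccharide, fell from 22.1 ± 1.29 to 10.9 ± 0.783 CPM (log2 fold change -1.03). CSF1R, the receptor for colony-stimulating factor 1, rose from 4.92 ± 0.264 to 17.8 ± 1.46 CPM (log2 fold change 1.85). The 10 fibroblast markers had 4 tested members, which were lower in ΔDNMT3A, with a sum of 209 to 215 CPM in WT and 160.1 to 174 CPM in ΔDNMT3A, most of it PDGFRA (from 160.1 ± 2.58 to 136 ± 6.10 CPM), whereas DCN and LUM were not tested. CD4, the marker used for selection, was near the counting floor in both groups, at 0.0908, 0.0368, 0.129 and 0.0782 CPM in the WT libraries and 0.265, 0.358, 0.237 and 0.201 CPM in the ΔDNMT3A libraries. It was too low for a test. Whether any of these markers had a part in the differences below was not tested.

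DNMT3A (ENSG00000119772; GRCh38 chromosome 2, 25227855 to 25342590, minus strand) was lower in the knockout line but not lost as mRNA. It stood at 64.5, 62.9, 68.1 and 66.6 CPM in the WT libraries and at 22.5, 20.9, 20.6 and 19.5 CPM in the ΔDNMT3A libraries. All ΔDNMT3A libraries lay far below all WT libraries. The log2 fold change was -1.65 (SE 0.0428; edgeR quasi-likelihood F test, Benjamini-Hochberg adjusted p = 4.3e-20). Gene counts include transcripts of an edited allele and do not measure protein.

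Of the 9 genes for methyltransferases and their partners, 5 were lower (55.6%), 1 was higher (11.1%) and 3 did not pass the threshold, an adjusted p of 0.05 over all genes. The 5 include DNMT3A, the deleted gene itself. Over all genes tested, 31.0% were lower and 31.2% higher, and 62.2% passed beside 66.7% of this list. DNMT3B (ENSG00000088305; chromosome 20, 32762385 to 32809356) had levels of 152, 152, 152 and 149.6 CPM in WT and 109, 112, 109 and 106 CPM in ΔDNMT3A, and the groups stood clear of each other. Its log2 fold change was -0.48 (SE 0.0271), beside a median of -0.24 for its neighbours on the chromosome. UHRF1, the protein that guides DNMT1 to hemimethylated DNA, fell from 129 ± 6.66 to 101 ± 1.99 CPM (log2 fold change -0.34). HELLS, a chromatin remodeller needed for methylation of repeats, fell from 157 ± 8.32 to 124 ± 5.38 CPM (log2 fold change -0.34). Its neighbour median was -0.26. CDCA7, which recruits HELLS, fell from 95.1 ± 1.49 to 74.3 ± 1.80 CPM (log2 fold change -0.36). CDCA7 and DNMT3A are the 2 members on chromosome 2. Without them, 3 of 7 were lower and 1 was higher, and the list's median log2 fold change moved from -0.34 to -0.072. CDCA7, however, lies 148 Mb from DNMT3A and had a neighbour median of -0.00014. Relative to the neighbour medians of its members, the list's median was -0.079. ZBTB24, a regulator of CDCA7 transcription, was the 1 member that rose (from 33.9 ± 1.96 to 40.3 ± 1.96 CPM, log2 fold change 0.25). DNMT1 (log2 fold change -0.031), UHRF2 (-0.072) and the catalytically inactive cofactor DNMT3L (0.29) did not pass.

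**Figure D1:**
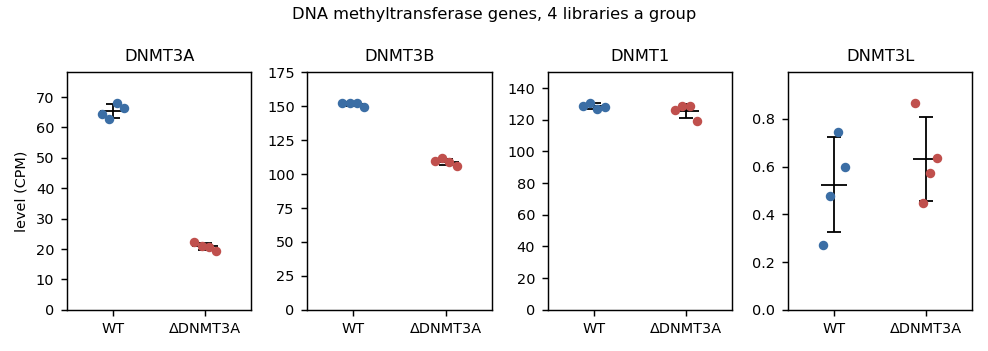
Levels of the 4 DNMT genes in CPM (y axes from 0, scaled for each gene) in the 4 WT and 4 ΔDNMT3A libraries. Points are libraries, long bars are means and short bars mark 1 SD. DNMT3A and DNMT3B stand clear between the groups, with DNMT3A at a mean of 65.5 CPM in WT and of 20.9 CPM in ΔDNMT3A, while the points of DNMT1 and DNMT3L overlap.

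The genes that remove or read methylation moved less. Of 12 tested, 6 were lower, 3 were higher and none changed as much as 2-fold. TET3, a dioxygenase that oxidises methylcytosine, fell from 42.6 ± 1.9998 to 33.3 ± 2.74 CPM (log2 fold change -0.36). TET2 of the same family fell from 29.9 ± 1.35 to 25.2 ± 1.61 CPM (log2 fold change -0.25). MBD2, a methyl-CpG binding repressor, fell from 28.02 ± 2.04 to 21.3 ± 0.869 CPM (log2 fold change -0.39). TDG, the glycosylase that excises oxidised bases, rose slightly (from 38.002 ± 1.30 to 42.5 ± 2.09 CPM, log2 fold change 0.16).

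Changes were spread over most expressed genes and were mostly small. Of 16654 genes tested, 62.2% passed the threshold, with 31.2% above WT in ΔDNMT3A and 31.0% below. The median size of a log2 fold change, in either direction, was 0.24, and 6715 of the genes past the threshold (64.8%) changed by less than 0.5. A fold change of at least 2 beside the adjusted p was met by 8.51% of genes, 787 higher (4.73%) and 631 lower (3.79%). At 4-fold, a log2 fold change of 2, 202 genes were higher and 155 lower. At a log2 fold change of 3 the numbers were 70 and 66. The 4 libraries of 1 group lay entirely above or below those of the other for 55.4% of genes.

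**Figure D2:**
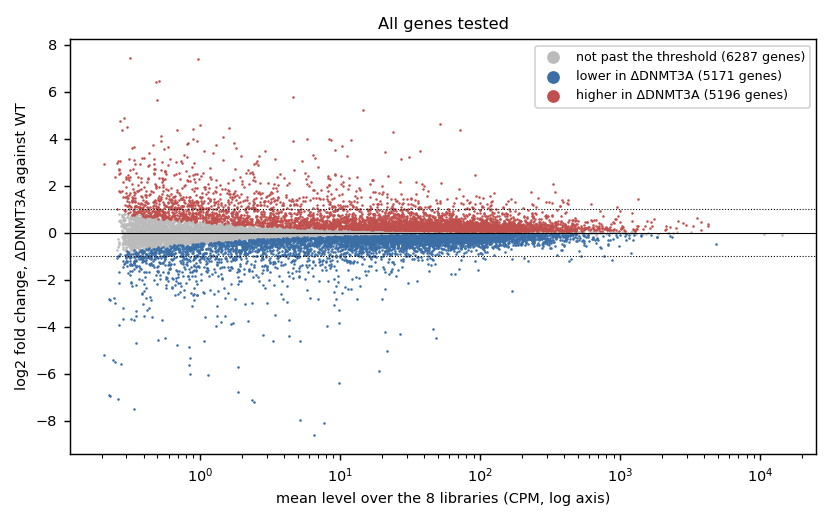
Log2 fold change of ΔDNMT3A against WT (y axis) for each tested gene against its mean level over the 8 libraries (x axis, CPM on a log scale). Red and blue points are genes past the threshold, grey points are not, and dotted lines mark 2-fold. The cloud is symmetric around 0, with 5196 genes higher and 5171 lower, and the largest changes lie at low and middle levels.

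The share of genes past the threshold followed the level. With genes split by mean level into 4 sets of equal size, it was 37.8% in the set with the lowest means and 76.9% in the set with the highest, where the median SE of the log2 fold change was 0.031 against 0.25 in the lowest. Changes of at least 2-fold went the other way, from 10% higher and 8.72% lower in the lowest set to 1.49% and 0.36% in the highest. By class of gene, 69.3% of 13025 protein-coding genes, 38.8% of 2232 lncRNA genes and 32.7% of 820 pseudogenes passed. At 2-fold, lncRNA genes stood at 5.96% higher and 4.66% lower, beside 4.71% and 3.61% of protein-coding genes.

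The highest and lowest genes among protein-coding genes with a mean of at least 10 CPM and groups that did not overlap were chosen by size, so their values describe the extremes. The gap between their groups was likewise a condition of the choice. PKIB, an inhibitor peptide of protein kinase A, led those that rose, and CLDN6, a claudin of embryonic epithelia, led those that fell. To show what lies at the start sites of genes at the extremes, the 300 bases around the annotated start (250 before, 50 after) are printed for 2 genes that rose and 2 that fell, as given by RefSeq on GRCh38.p14, 5′ to 3′ on the gene's strand, with each CpG in capitals.
PKIB, chr6:122471671-122471970, plus strand: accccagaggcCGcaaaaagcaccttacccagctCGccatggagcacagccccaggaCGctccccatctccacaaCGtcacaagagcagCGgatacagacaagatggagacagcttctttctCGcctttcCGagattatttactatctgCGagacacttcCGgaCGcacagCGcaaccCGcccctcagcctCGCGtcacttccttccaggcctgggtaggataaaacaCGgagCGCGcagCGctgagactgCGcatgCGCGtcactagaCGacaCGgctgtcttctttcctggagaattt
PLB1, chr2:28495810-28496109, plus strand: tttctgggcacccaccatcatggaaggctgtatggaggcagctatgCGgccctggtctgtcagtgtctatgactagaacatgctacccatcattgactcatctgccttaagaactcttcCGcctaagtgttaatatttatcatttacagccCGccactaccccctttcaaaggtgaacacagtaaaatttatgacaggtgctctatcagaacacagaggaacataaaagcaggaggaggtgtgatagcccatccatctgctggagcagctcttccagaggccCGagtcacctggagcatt
CLDN6, chr16:3018134-3018433, minus strand: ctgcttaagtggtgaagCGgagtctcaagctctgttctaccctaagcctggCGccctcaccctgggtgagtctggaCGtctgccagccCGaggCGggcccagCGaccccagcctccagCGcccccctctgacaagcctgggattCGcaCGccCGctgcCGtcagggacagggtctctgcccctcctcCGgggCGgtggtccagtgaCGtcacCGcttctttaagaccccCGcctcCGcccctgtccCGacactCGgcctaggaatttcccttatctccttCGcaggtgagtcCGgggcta
MXRA8, chr1:1358498-1358797, minus strand: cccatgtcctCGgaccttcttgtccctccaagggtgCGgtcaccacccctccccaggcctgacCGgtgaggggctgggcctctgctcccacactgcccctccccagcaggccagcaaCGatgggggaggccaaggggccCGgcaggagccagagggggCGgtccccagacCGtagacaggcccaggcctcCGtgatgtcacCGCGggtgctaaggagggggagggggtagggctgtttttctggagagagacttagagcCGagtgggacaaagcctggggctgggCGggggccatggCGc
PKIB has 23 CpGs and CLDN6 has 21, and both windows counted as CpG-rich (a GC content of at least 55% and an observed to expected CpG ratio of at least 0.6). PLB1 has 4 and MXRA8 has 13, and both counted as CpG-poor. Of all 62690 annotated start windows of this length, 27.96% were CpG-rich, but of those of tested protein-coding genes, the kind printed here, 78.1% were. These letters say nothing of whether the sites were methylated, and genes of either kind stood at either extreme.

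PKIB (ENSG00000135549; chromosome 6, 122471917 to 122726373) stood at 0.847, 0.478, 0.938 and 0.730 CPM in WT and at 27.5, 29.5, 28.1 and 29.6 CPM in ΔDNMT3A, so that no WT library reached 1 CPM and every ΔDNMT3A library passed 25. The log2 fold change was 5.24 (SE 0.0994). PLB1, a brush border phospholipase (ENSG00000163803; chromosome 2, 28457145 to 28643788), was at 4.48, 4.38, 3.82 and 3.78 CPM in WT and at 103, 103, 99.96 and 95.6 CPM in ΔDNMT3A (log2 fold change 4.62). The median of its 50 neighbours on the chromosome was 1.12, and for other named genes this neighbour median is given where it passed 0.3 in either direction. Smaller ones are mostly left out, so that a small change may be largely shared by the neighbours of a gene. SLC3A1, the heavy subunit of the renal and intestinal cystine transporter, rose from 6.68 ± 0.803 to 137 ± 6.65 CPM (log2 fold change 4.35), with a neighbour median of 0.55. RYR2, a calcium release channel best known from heart muscle, rose from 1.46 ± 0.188 to 22.4 ± 1.82 CPM (log2 fold change 3.93). GPAT3, which makes lysophosphatidic acid for triglyceride synthesis, rose from 1.49 ± 0.0433 to 19.4 ± 1.14 CPM (log2 fold change 3.70). TFPI, the inhibitor of tissue factor, had 3.48, 3.42, 4.17 and 3.18 CPM in WT and 39.9, 39.1, 35.4 and 40.8 CPM in ΔDNMT3A (log2 fold change 3.45, SE 0.0722). All of its ΔDNMT3A libraries were far above all WT libraries.

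The remaining genes of this group encode mostly secreted or surface proteins. MMP1, a collagenase, rose from 6.27 ± 0.552 to 68.2 ± 2.49 CPM (log2 fold change 3.45), with a neighbour median of 0.31. REG4, a secreted lectin of enteroendocrine and goblet cells, rose from 2.08 ± 0.298 to 20.4 ± 0.240 CPM (log2 fold change 3.28). GALNT5, a glycosyltransferase that starts mucin-type glycans, rose from 6.12 ± 0.783 to 55.9 ± 4.62 CPM (log2 fold change 3.20). CEACAM6, an adhesion molecule of the carcinoembryonic antigen family, rose from 5.59 ± 0.307 to 49.01 ± 2.54 CPM (log2 fold change 3.13); its family has near-identical members, so that its counts are less certain. TNC, the matrix protein tenascin C, was at 28.6, 27.2, 27.8 and 30.1 CPM in WT and at 161, 166, 147 and 146 CPM in ΔDNMT3A (log2 fold change 2.44, SE 0.0438). It was well expressed in WT too, and its groups were separated by a wide gap. QPCT, the enzyme that forms N-terminal pyroglutamate, rose from 3.22 ± 0.412 to 17.3 ± 0.472 CPM (log2 fold change 2.42), with a neighbour median of 0.55.

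At the other end, CLDN6 (ENSG00000184697; chromosome 16, 3014712 to 3020071) stood at 37.2, 35.1, 39.2 and 39.2 CPM in WT and at 0.722, 0.925, 0.541 and 0.268 CPM in ΔDNMT3A, a log2 fold change of -5.89 (SE 0.116) beside a neighbour median of -0.33. All ΔDNMT3A libraries were below 1 CPM. MXRA8, a cell surface protein known as an alphavirus receptor, was at 40.999, 42.1, 43.04 and 42.7 CPM in WT and at 1.35, 1.28, 1.32 and 1.14 CPM in ΔDNMT3A (log2 fold change -5.04, SE 0.0706). HMGA2, an architectural chromatin protein of embryonic and tumour cells, was at 92.9, 95.3, 93.3 and 92.2 CPM in WT and at 3.85, 3.70, 4.50 and 4.72 CPM in ΔDNMT3A (log2 fold change -4.49, SE 0.0523). In both genes each WT library exceeded each ΔDNMT3A library many times over.

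COL4A5 and COL4A6, which lie head to head on chromosome X and encode chains of basement membrane collagen, fell together. COL4A5 (chromosome X, 108439844 to 108697545) was at 86.3, 85.6, 84.4 and 92.4 CPM in WT and at 4.67, 5.82, 5.21 and 4.96 CPM in ΔDNMT3A (log2 fold change -4.08). COL4A6 (chromosome X, 108155607 to 108439497) was at 51.8, 50.7, 49.8 and 51.9 CPM in WT and at 2.29, 2.86, 2.71 and 2.61 CPM in ΔDNMT3A (log2 fold change -4.29). In neither did the groups come near each other. CYP2W1, a cytochrome P450 of fetal gut and colon tumours, fell from 34.8 ± 0.922 to 4.97 ± 0.233 CPM (log2 fold change -2.80). PYGO1, a cofactor of β-catenin, fell from 17.6 ± 0.390 to 3.01 ± 0.161 CPM (log2 fold change -2.55). LIN7A, a polarity scaffold, fell from 290.1 ± 9.53 to 51.3 ± 1.43 CPM (log2 fold change -2.502) and was the most abundant of these in WT. LGR5, the R-spondin receptor that marks crypt stem cells, had 35.8, 37.3, 32.1 and 35.4 CPM in WT and 6.33, 7.07, 6.63 and 6.30 CPM in ΔDNMT3A (log2 fold change -2.42, SE 0.0613). Its groups were separate. NPNT, a basement membrane ligand of integrins, fell from 19.2 ± 0.487 to 3.66 ± 0.697 CPM (log2 fold change -2.41). PCOLCE, an enhancer of procollagen processing, fell from 20.1 ± 1.56 to 3.76 ± 0.953 CPM (log2 fold change -2.40), with a neighbour median of -0.37. The adjusted p of these 23 genes, by the edgeR F test and the Benjamini-Hochberg method, ran from 1.7e-26 to 1.71e-15.

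**Figure D3:**
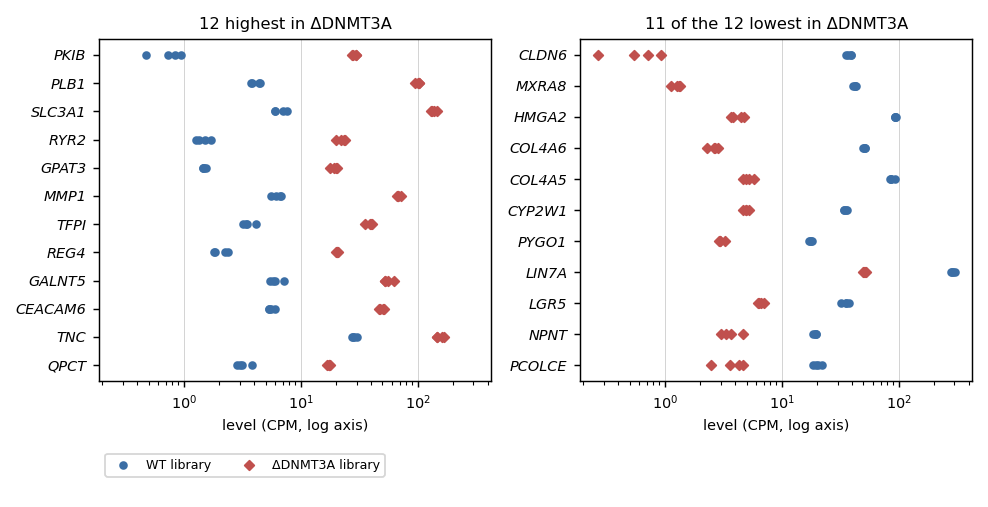
Level in each library (x axis, CPM on a log scale) of the 12 genes that rose most and 11 of the 12 that fell most among protein-coding genes with a mean of at least 10 CPM and groups that did not overlap. Blue circles are WT libraries and red diamonds ΔDNMT3A libraries. Within a group the 4 points of most genes lie close together, but those of CLDN6 in ΔDNMT3A and of PKIB in WT are more spread. The gap between groups is widest for PKIB at the top left and CLDN6 at the top right.

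In absolute terms the largest gains and losses fell on abundant transcripts. NPM1, a nucleolar chaperone, gained most and rose from 2770.2 ± 84.2 to 4259 ± 43.7 CPM (log2 fold change 0.62). KRT18, the main type I keratin of simple epithelium, rose from 3243 ± 71.5 to 4376 ± 81.4 CPM (log2 fold change 0.43). Its partner KRT8 rose from 3685 ± 59.6 to 4737 ± 157 CPM (log2 fold change 0.36). CANX, a chaperone of the endoplasmic reticulum, rose from 2144 ± 42.4 to 3012 ± 20.4 CPM (log2 fold change 0.49) with a neighbour median of 0.32. CALM2, a calmodulin gene, rose from 728 ± 17.3 to 1973 ± 8.63 CPM (log2 fold change 1.44) with a neighbour median of 0.59. KRT8, KRT18 and NPM1 have many processed pseudogenes, and the 3 calmodulin genes encode the same protein, so that reads may be shared. Among the losses, SCD, the desaturase that makes oleate, fell from 1205 ± 33.4 to 542 ± 18.2 CPM (log2 fold change -1.153). FN1, fibronectin, fell from 5673 ± 232 to 4000.5 ± 112 CPM (log2 fold change -0.50). RRBP1, a ribosome-binding membrane protein, fell from 1025 ± 7.47 to 520.0 ± 7.22 CPM (log2 fold change -0.98). GLUD1, glutamate dehydrogenase, fell from 1562 ± 17.0 to 850.0 ± 32.6 CPM (log2 fold change -0.88). The long non-coding RNA NORAD fell from 1164 ± 13.7 to 796 ± 10.4 CPM (log2 fold change -0.55).

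Few genes went from no detectable transcript to a clear level, and more went the other way. With at most 3 counts in every library of 1 group and a mean of at least 1 CPM in the other, 3 genes were at the floor in WT alone and 12 in ΔDNMT3A alone. The 3 were ZBED2, NDP and LINC02015, and none of their start windows was CpG-rich. ZBED2, a transcription factor of keratinocytes and T cells, had 0, 0, 0 and 1 counts in WT and 67, 70, 57 and 63 in ΔDNMT3A. Against the floor of 3 counts in each WT library, it was higher by a log2 fold change of at least 4.36. NDP, the secreted Frizzled ligand norrin, had 0, 0, 1 and 0 counts in WT and 44, 25, 31 and 36 in ΔDNMT3A (at least 3.43).

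Those lost in ΔDNMT3A were protein-coding, and 5 of the 12 had CpG-rich start windows. DSC3, a desmosomal cadherin of stratified epithelium, had 531, 461, 418 and 586 counts in the WT libraries and 2, 3, 1 and 1 in the ΔDNMT3A libraries. Its log2 fold change was -7.41 or lower against the floor. SYT13, an atypical synaptotagmin, had 411, 332, 429 and 518 counts in WT and 0, 2, 2 and 0 in ΔDNMT3A (-7.16 or lower). SOHLH1, a transcription factor of germ cells, had 333, 294, 307 and 416 and 2, 0, 2 and 1 counts (-6.84 or lower). All 3 were expressed at more than 9 CPM in each WT library and were at or near 0 counts throughout ΔDNMT3A. DYNC1I1, a dynein intermediate chain, had a bound of -5.75 and a neighbour median of -0.42. MARCHF1, a ubiquitin ligase of antigen-presenting cells, had -5.70, and ZC3H12B, a zinc finger ribonuclease on chromosome X, -4.63. GPRIN2 and CSF2RA also met the rule, but GPRIN2 lies in duplicated sequence and CSF2RA in the region that chromosomes X and Y share, so their counts are uncertain.

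DNMT3A sat at a step in the profile of chromosome 2. Toward the end of the short arm, 62 of 70 tested genes with a mean of at least 1 CPM were lower in ΔDNMT3A and 1 was higher, and the median log2 fold change was -0.47. In the first 10 Mb toward the centromere, 63 of 66 genes were higher and 2 lower, with a median of 1.14. From 10 to 45 Mb, 115 of 137 were higher and 6 lower (median 0.52), and beyond 45 Mb the split was 231 higher and 196 lower of 649 (median 0.0094), near that of all genes. The limits of 10 and 45 Mb were set after the values had been seen.

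The step was seen in every ΔDNMT3A library and over a short distance. In the 4 ΔDNMT3A libraries, the median log2 difference from the WT mean was -0.47 to -0.43 on the short-arm side and 1.14 to 1.17 in the first 10 Mb on the other side, and in the WT libraries these medians lay between -0.029 and 0.012. The WT medians lie near 0 because each WT library is set against the mean of its own group, so they show its spread only. Of the 19 other tested genes within 1 Mb of DNMT3A, 8 were lower and 10 higher, and the 8 lower genes all lay on the short-arm side. The stretch medians above stand for these genes in place of a neighbour median. NCOA1, a coactivator of nuclear receptors, was at 44.5, 45.1, 46.6 and 43.3 CPM in WT and at 25.6, 25.8, 25.8 and 25.97 CPM in ΔDNMT3A (log2 fold change -0.80). ADCY3, an adenylyl cyclase, fell from 71.0 ± 2.05 to 47.2 ± 2.48 CPM (log2 fold change -0.59). The nearest gene on this side with more than 10 CPM, EFR3B, changed little (from 30.8 ± 1.02 to 27.6 ± 0.697 CPM, log2 fold change -0.16). POMC, the precursor of corticotropin and melanocortins, rose from 0.616 ± 0.112 to 1.52 ± 0.448 CPM (log2 fold change 1.33) at a low level.

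On the centromere side, DTNB, a dystrobrevin gene whose downstream end lies 35 kb from DNMT3A, was at 5.93, 7.18, 7.37 and 7.35 CPM in WT and at 17.5, 17.1, 16.8 and 17.0 CPM in ΔDNMT3A (log2 fold change 1.30). RAB10, a GTPase of basolateral and endosomal traffic, was at 219, 215, 211 and 203 CPM in WT and at 556, 564, 559 and 559 CPM in ΔDNMT3A (log2 fold change 1.399, SE 0.0269). Every library of ΔDNMT3A exceeded every library of WT in both. KIF3C, a kinesin, rose from 7.67 ± 0.310 to 18.7 ± 1.51 CPM (log2 fold change 1.29). HADHA and HADHB, which lie head to head and encode the mitochondrial trifunctional protein, rose from 243 ± 3.44 to 466 ± 12.2 CPM (log2 fold change 0.94) and from 147 ± 3.8995 to 328 ± 6.33 CPM (log2 fold change 1.16). ASXL2, a Polycomb-associated protein, rose from 44.3 ± 2.74 to 83.2 ± 4.41 CPM (log2 fold change 0.91). The exceptions in the first 10 Mb, chosen after their values were seen, were DPYSL5 (log2 fold change -3.28), a neuronal collapsin response protein, and KCNK3 (-1.55), a potassium channel.

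**Figure D4:**
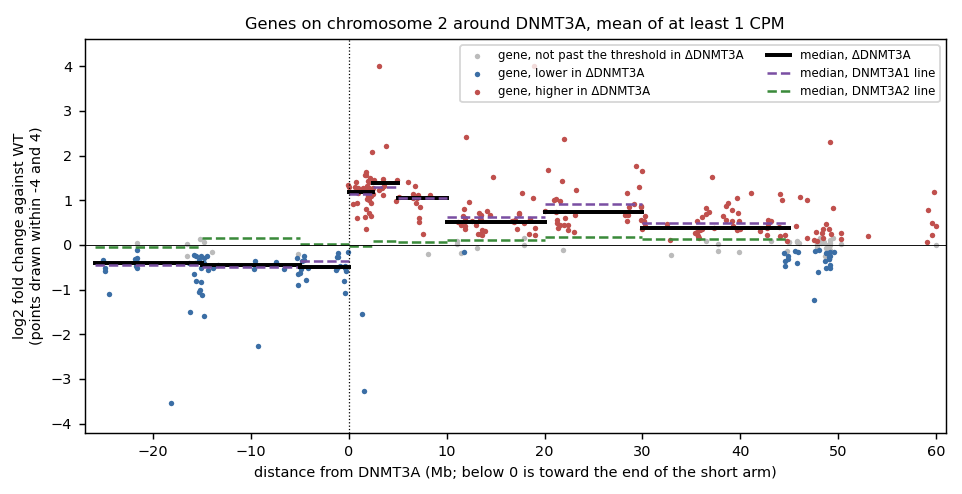
Log2 fold change against WT (y axis, points drawn within -4 and 4) of genes on chromosome 2 with a mean of at least 1 CPM, by distance from DNMT3A in Mb (x axis, negative toward the end of the short arm). Points are genes in ΔDNMT3A, black bars are medians of stretches in ΔDNMT3A, and dashed bars are medians of the 2 lines that carry a reintroduced isoform. The black bars step from about -0.48 to 1.18 at DNMT3A, the bars of the DNMT3A1 line step alike, and those of the DNMT3A2 line stay between -0.038 and 0.17.

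The 2 lines with a reintroduced isoform, which by the labels and the study's methods were made from ΔDNMT3A, differed in this feature. In the DNMT3A1 line, 3 libraries against the same 4 WT libraries, the medians were -0.45, 1.14 and 0.64 on the short-arm side, in the first 10 Mb and from 10 to 45 Mb. In the 4 libraries labelled DNMT3A2 they were 0.025, 0.044 and 0.14. These comparisons share the WT libraries, and their values stand side by side without a test. The DNMT3A2 libraries did not show the step of ΔDNMT3A, so it is uncertain whether that line came from the clone profiled here, which was not tested. Copies of DNA were not measured, and gene counts do not separate a change in copies from a change in transcripts per copy. Of the 787 genes higher by at least 2-fold in ΔDNMT3A, 138 lay on chromosome 2, as did 48 of the 631 lower by at least 2-fold and 774 of the 10367 genes past the threshold. Of the 1145 tested genes on this chromosome, 12.1% were higher and 4.19% lower by at least 2-fold, beside 4.73% and 3.79% of all genes. The share past the threshold was 67.6% there and 62.2% over all genes.

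The medians of other chromosomes were shifted as well, but within chromosomes 22 and 7 the shift was not even. Chromosome 2 taken as a whole had a median log2 fold change of 0.078, and 8 others had larger shifts in either direction, the 4 largest of which follow. Chromosome 22 had a median log2 fold change of 0.23 with 56.0% of its 409 tested genes higher. Chromosome 7 had a median of -0.22 with 49.6% of 815 lower, chromosome 20 a median of -0.19 with 57.5% of 468 lower, and chromosome 13 a median of -0.13 with 45.2% of 281 lower. On chromosome 22 the neighbour median was -0.56 at PPARA and 0.25 at MCM5. On chromosome 7 it was -0.42 at ASNS and 0.10 at CYCS. Counted against the median of their 50 neighbours in place of 0, 674 genes were higher and 562 lower by at least 2-fold.

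Genes with CpG-poor start windows changed by at least 2-fold more often than genes with CpG-rich windows, whereas the order of the shares past the threshold depended on which genes were counted. These shares were 54.7% for CpG-poor and 65.9% for CpG-rich windows over all tested genes, 68.6% and 69.4% among protein-coding genes, and 75.6% and 72.7% among protein-coding genes with at least 10 CPM. Among protein-coding genes, changes of at least 2-fold upward were found in 10.4% of the CpG-poor and 3.13% of the CpG-rich, and downward in 6.65% and 2.75%. CpG-poor genes were also less expressed, with a median of 10.97 CPM beside 35.1 CPM, and among genes with at least 10 CPM the shares were 4.14% against 1.51% upward and 1.97% against 0.934% downward. Seen from the other side, 51.8% of the 614 protein-coding genes with a window that rose at least 2-fold had CpG-rich windows, as had 59.6% of the 470 that fell, beside 78.1% of all protein-coding genes tested. DNA methylation itself was not analysed here.

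For 45 lists of genes that describe this tissue and this enzyme, members past the threshold were counted in each direction. The counts are read against 31.2% higher and 31.0% lower over all genes, and medians of log2 fold changes against -0.0049. By level, the shares were 43.2% higher and 33.6% lower in the set with the highest means, and 19.4% and 18.4% in the lowest set. Shares at 2-fold ran the other way, as given above. The lists were not matched for level, and its part in their shares was not tested. Unless values are given without a verb, members named from a list passed the same edgeR threshold and had groups that did not overlap. For most of them this lack of overlap was a condition of being named. It was met by 55.4% of all genes, so that its mention below adds no support.

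**Figure D5:**
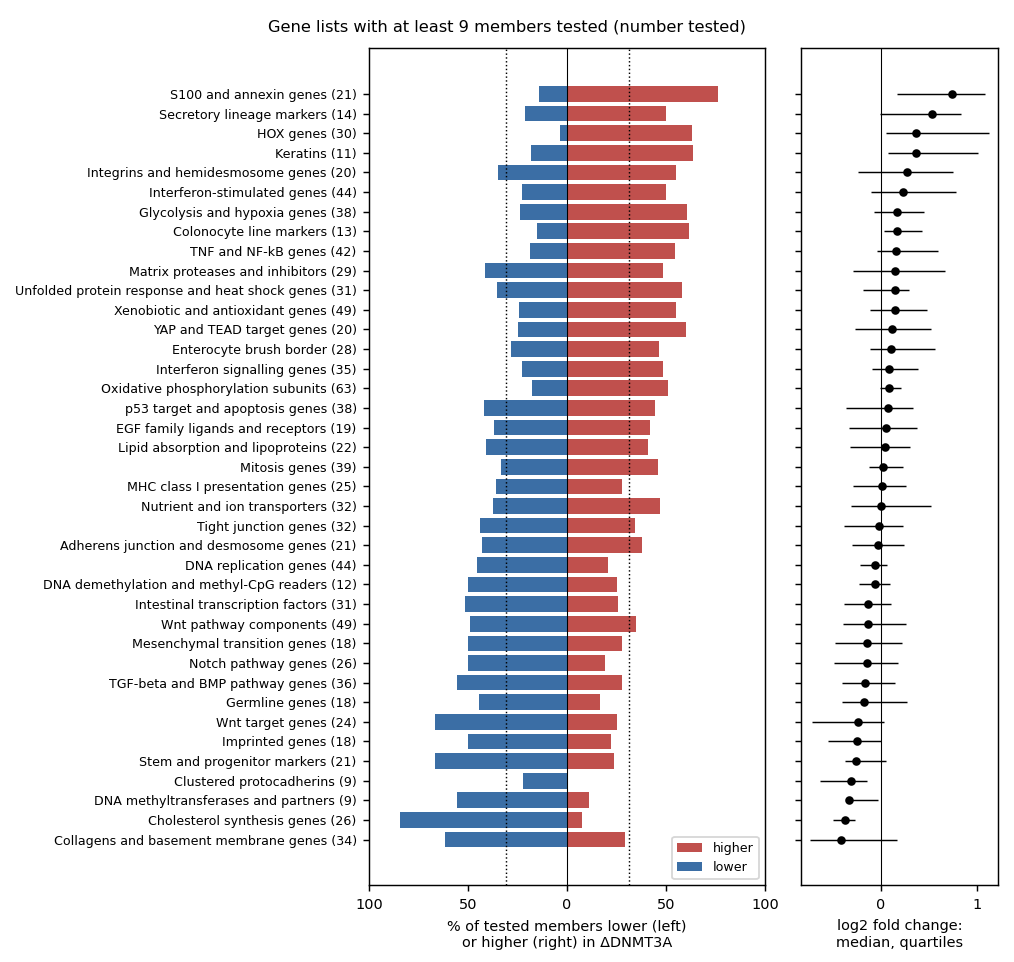
Gene lists with at least 9 members tested, ordered by median log2 fold change. Left, the percent of tested members lower (blue, drawn to the left) and higher (red, drawn to the right) in ΔDNMT3A, with dotted lines at the shares over all genes, 31.0% and 31.2%. Right, the median (point) and quartiles (line) of the members' log2 fold changes. The S100 and annexin list stands at the top with a median of 0.74 and the collagen and basement membrane list at the bottom with -0.42.

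Gene classes that textbooks describe as silenced by methylation differed in how many members were at the floor in both groups. Of 50 cancer-testis antigen genes, 47 were at the floor of 3 counts in all 8 libraries and only PAGE4 was tested (0.20, at 9.19 ± 0.585 CPM in WT and at 10.6 ± 0.597 CPM in ΔDNMT3A). Of 50 germline genes, 23 were at the floor in all 8 libraries and 18 were tested, 3 higher and 8 lower. DPPA3, a protein of oocytes and germ cells, rose from 0.993 ± 0.218 to 15.7 ± 1.06 CPM (log2 fold change 3.98), with 0.877, 1.18, 0.744 and 1.17 CPM in WT and 15.9, 15.1, 14.7 and 17.2 CPM in ΔDNMT3A. It was low in every WT library and higher in every ΔDNMT3A library. PIWIL2, of the piRNA pathway, rose from 7.26 ± 0.502 to 13.9 ± 0.972 CPM (log2 fold change 0.94). STK31, a testis kinase, rose from 53.1 ± 1.47 to 68.8 ± 2.08 CPM (log2 fold change 0.37). SYCP2 of the synaptonemal complex fell from 151 ± 9.48 to 119 ± 3.49 CPM (log2 fold change -0.34). SOHLH1 was lost, as given above. Of 53 clustered protocadherins, 24 were at the floor in all 8 libraries and 9 were tested, none higher and 2 lower. PCDHB2 fell from 2.79 ± 0.420 to 0.952 ± 0.0217 CPM (log2 fold change -1.55). Members of a protocadherin cluster share sequence, so that reads may be split between them.

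Imprinted genes were more often lower, with 9 of 18 tested lower (50.0%) and 4 higher (22.2%). ZDBF2 fell from 16.9 ± 0.764 to 8.75 ± 0.355 CPM (log2 fold change -0.95). PPP1R9A fell from 99.2 ± 5.37 to 54.7 ± 3.27 CPM (log2 fold change -0.86) with a neighbour median of -0.41. PEG10, a retrotransposon-derived gene, fell from 647 ± 16.6 to 372 ± 14.8 CPM (log2 fold change -0.80) with a neighbour median of -0.41. PHLDA2, an inhibitor of placental growth, rose from 1.53 ± 0.296 to 4.43 ± 0.626 CPM (log2 fold change 1.54). CDKN1C, a cell cycle inhibitor, rose from 25.05 ± 2.001 to 34.6 ± 1.23 CPM (log2 fold change 0.46). Counts per gene do not tell the parental alleles apart.

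HOX genes, the transcription factors that set position along the body axis, moved mostly in one direction. Of 30 tested, 19 were higher (63.3%) and 1 was lower, and the median log2 fold change was 0.36. At least 2-fold higher were 9 (30%, beside 4.73% of all genes). Without the 3 members on chromosome 2, 16 of 27 were higher and the median was 0.29. Those left out include HOXD3, which lies 150.8 Mb from DNMT3A and had a neighbour median of 0.038. Relative to the neighbour medians, the list's median was 0.30. HOXB13, a posterior gene of hindgut and prostate, was at 5.93, 6.74, 7.79 and 6.83 CPM in WT and at 15.7, 14.8, 15.6 and 14.1 CPM in ΔDNMT3A (log2 fold change 1.145, SE 0.0749). Its groups were distinct. HOXC12 rose from 0.444 ± 0.0853 to 1.85 ± 0.540 CPM (log2 fold change 2.07). HOXD3 on chromosome 2 rose from 1.16 ± 0.222 to 2.90 ± 0.383 CPM (log2 fold change 1.33). HOXA6 was the single member that fell (from 3.55 ± 0.118 to 2.94 ± 0.118 CPM, log2 fold change -0.27). This call was lost without WT replicate 2 (-0.25, adjusted p = 0.0554 by edgeR with Benjamini-Hochberg adjustment), without ΔDNMT3A replicate 1 (-0.25, adjusted p = 0.0575) and in DESeq2 (adjusted p = 0.127).

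Enterocyte genes moved both ways. Of 28 brush border genes, 13 were higher (46.4%) and 8 lower (28.6%), and their summed level went from 2253 to 2334 CPM in WT to 2650 to 2705 CPM in ΔDNMT3A. Their median was 0.11, with -0.025 without the 5 on chromosome 2 and 0.064 relative to the neighbour medians. SLC15A1, the intestinal peptide transporter, was at 8.59, 8.91, 9.51 and 8.89 CPM in WT and at 29.0, 29.3, 29.1 and 28.9 CPM in ΔDNMT3A (log2 fold change 1.70). LCT, lactase, rose from 9.74 ± 1.16 to 26.4 ± 0.748 CPM (log2 fold change 1.43). CDHR2, a cadherin that links the tips of microvilli, rose from 1.153 ± 0.164 to 3.05 ± 0.422 CPM (log2 fold change 1.39) with a neighbour median of 0.36. ANPEP, aminopeptidase N, rose from 6.396 ± 0.438 to 12.3 ± 0.798 CPM (log2 fold change 0.94). ENPEP, aminopeptidase A, was at 1.57, 1.21, 2.10 and 1.77 CPM in WT and at 0.530, 0.596, 0.406 and 0.804 CPM in ΔDNMT3A (log2 fold change -1.52). ESPN, an actin bundler of microvilli, fell from 17.4 ± 1.08 to 10.2 ± 0.719 CPM (log2 fold change -0.77). Peptidases of the same membrane thus lay on opposite sides.

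Genes of lipid absorption split evenly, 9 higher and 9 lower of 22. FABP6, the ileal bile acid binding protein, rose from 1.92 ± 0.157 to 5.32 ± 0.0582 CPM (log2 fold change 1.47). APOA4, an apolipoprotein of chylomicrons, rose from 11.2 ± 1.58 to 26.4 ± 3.62 CPM (log2 fold change 1.22). APOA2 fell from 486 ± 20.2 to 289 ± 12.2 CPM (log2 fold change -0.75). APOH fell from 133 ± 4.77 to 79.5 ± 3.94 CPM (log2 fold change -0.74). APOB, the structural protein of chylomicrons and LDL, fell from 658 ± 52.7 to 457 ± 39.7 CPM (log2 fold change -0.52) with a neighbour median of -0.42. Among 32 nutrient and ion transporters, 15 were higher and 12 lower, with the largest changes upward. SLC2A5, the fructose transporter, was at 1.21, 1.03, 1.26 and 1.62 CPM in WT and at 11.3, 9.10, 12.9 and 14.8 CPM in ΔDNMT3A (log2 fold change 3.19, SE 0.147). CFTR, the apical chloride channel, fell from 205 ± 4.41 to 129 ± 1.54 CPM (log2 fold change -0.68) with a neighbour median of -0.32. SLC40A1, the iron exporter ferroportin, fell from 338 ± 6.49 to 225 ± 12.6 CPM (log2 fold change -0.59).

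Transcription factors of the intestine were lower more often than higher, 16 against 8 of 31. HNF4G, a nuclear receptor of enterocytes, was at 2.06, 2.61, 2.23 and 1.82 CPM in WT and at 0.217, 0.328, 0.575 and 0.335 CPM in ΔDNMT3A (log2 fold change -2.61, SE 0.226), without overlap. PPARA, a nuclear receptor for fatty acids, fell from 24.999 ± 0.663 to 10.5 ± 0.634 CPM (log2 fold change -1.25) with a neighbour median of -0.56. FOXA1 fell from 139 ± 4.39 to 77.5 ± 3.54 CPM (log2 fold change -0.84). CDX2 and HNF4A, which define intestinal identity, fell by little. CDX2 fell from 102 ± 0.908 to 91.9 ± 4.40 CPM (log2 fold change -0.15). HNF4A fell from 433 ± 19.2 to 383 ± 14.3 CPM (log2 fold change -0.18) with a neighbour median of -0.17. MAF rose from 1.13 ± 0.244 to 6.33 ± 0.931 CPM (log2 fold change 2.48). KLF4, a factor of differentiated surface cells, rose from 2.85 ± 0.378 to 6.61 ± 0.5003 CPM (log2 fold change 1.22).

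Markers of stem and progenitor cells were lower in 14 of 21 cases (66.7%) and higher in 5 (23.8%), with a median of -0.26. Beside LGR5, TERT, the telomerase catalytic subunit, fell from 3.50 ± 0.471 to 1.36 ± 0.0568 CPM (log2 fold change -1.36). SOX4 fell from 40.4 ± 1.80 to 25.8 ± 0.815 CPM (log2 fold change -0.65). ALDH1A1 rose from 185 ± 3.05 to 318 ± 5.45 CPM (log2 fold change 0.78). AXIN2, a target of Wnt signalling, rose from 39.2 ± 1.24 to 47.5 ± 0.804 CPM (log2 fold change 0.27). Secretory lineage markers went more often the other way, 7 higher and 3 lower of 14 tested out of 32, with a median of 0.54. ZG16, a lectin of goblet cell granules, rose from 2.10 ± 0.471 to 4.36 ± 0.631 CPM (log2 fold change 1.04). TFF1 rose from 1.52 ± 0.489 to 2.82 ± 0.299 CPM (log2 fold change 0.87). AGR2, a disulfide isomerase needed for mucin folding, stood at 155 ± 4.27 CPM in WT and at 255 ± 7.42 CPM in ΔDNMT3A, while TFF3 fell from 5.74 ± 0.967 to 3.86 ± 0.233 CPM (log2 fold change -0.58). Defining secretory genes such as MUC2, ATOH1, SPDEF and CHGA were not tested for want of counts, and 13 of the 32 markers were at the floor in all 8 libraries. Of 14 mucins only 3 were tested, among them MUC13, a transmembrane mucin, which rose from 2.42 ± 0.339 to 5.42 ± 0.510 CPM (log2 fold change 1.16).

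Keratins changed by member. Of 11 tested, 7 were higher and 2 lower. KRT20, the keratin of differentiated surface cells, was at 1.45, 1.10, 0.679 and 0.938 CPM in WT and at 16.8, 17.4, 14.6 and 15.8 CPM in ΔDNMT3A (log2 fold change 3.95, SE 0.120), each ΔDNMT3A library being well above each WT library. KRT23 rose from 1.10 ± 0.380 to 2.04 ± 0.413 CPM (log2 fold change 0.88). KRT17, a keratin of basal and wounded epithelium, fell from 1.35 ± 0.340 to 0.340 ± 0.0274 CPM (log2 fold change -1.98). KRT4, of stratified mucosa, fell from 3.37 ± 0.295 to 1.11 ± 0.228 CPM (log2 fold change -1.62).

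Junction genes did not share a direction. Of 32 tight junction genes, 11 were higher and 14 lower, and of 21 genes of adherens junctions and desmosomes, 8 were higher and 9 lower. Beside CLDN6, CLDN1 fell from 54.1 ± 1.5005 to 32.0 ± 1.502 CPM (log2 fold change -0.76). CLDN4 fell from 128 ± 3.73 to 82.2 ± 3.63 CPM (log2 fold change -0.63) with a neighbour median of -0.35. CLDN2, which forms a cation pore, rose from 34.7 ± 1.21 to 56.3 ± 1.94 CPM (log2 fold change 0.70). Among desmosomal genes, DSC2 was at 45.9, 49.7, 44.1 and 46.4 CPM in WT and at 20.9, 20.4, 22.6 and 22.5 CPM in ΔDNMT3A (log2 fold change -1.11) and DSC3 was lost, whereas PERP, a desmosomal tetraspan protein, was at 155, 159.8, 154 and 159 CPM in WT and at 525, 536, 516 and 524 CPM in ΔDNMT3A (log2 fold change 1.74). These groups did not overlap. CDH6 fell from 13.4 ± 0.831 to 3.19 ± 0.259 CPM (log2 fold change -2.07). CDH17, the liver-intestine cadherin, rose from 430.0 ± 1.13 to 563 ± 5.59 CPM (log2 fold change 0.39). EPCAM rose from 750.5 ± 10.9 to 1019.9 ± 5.76 CPM (log2 fold change 0.44) with a neighbour median of 0.66.

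Of the cell surface and matrix lists, S100 and annexin genes stood out by their counts. Of 21 tested, 16 were higher (76.2%) and 3 lower (14.3%), and the median log2 fold change was 0.74 (0.62 without chromosome 2). Relative to the neighbour medians it was 0.64. The summed level went from between 3124 and 3253 CPM to between 4684 and 4799 CPM. ANXA1, an annexin with anti-inflammatory activity, was at 4.51, 4.53, 3.78 and 4.59 CPM in WT and at 22.6, 24.3, 21.3 and 21.4 CPM in ΔDNMT3A (log2 fold change 2.36, SE 0.0736). S100A14 was at 134, 128, 126 and 128 CPM in WT and at 543, 534, 554 and 516 CPM in ΔDNMT3A (log2 fold change 2.06, SE 0.0295). In both the groups were far apart. ANXA9 fell from 77.2 ± 1.22 to 47.4 ± 2.704 CPM (log2 fold change -0.71). S100P fell from 2.78 ± 0.0813 to 2.04 ± 0.358 CPM (log2 fold change -0.46).

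Collagens and other basement membrane genes were lower in 21 of 34 cases (61.8%) and higher in 10, with a median of -0.42, or -0.27 without the 4 on chromosome 2 and -0.25 relative to the neighbour medians. FBLN1, fibulin-1, fell from 146 ± 9.19 to 48.5 ± 2.36 CPM (log2 fold change -1.59) with a neighbour median of -0.56. Against this direction, COL4A1, a chain of the ubiquitous basement membrane collagen, rose from 16.7 ± 0.652 to 32.3 ± 1.64 CPM (log2 fold change 0.95). VTN, vitronectin, rose from 599.5 ± 20.8 to 1292 ± 47.4 CPM (log2 fold change 1.11). TNC rose as given above. Integrin and hemidesmosome genes were higher in 11 of 20 and lower in 7. DST, the plakin of hemidesmosomes, rose from 89.0 ± 3.10 to 227 ± 20.4 CPM (log2 fold change 1.35). ITGA5, of the fibronectin receptor, rose from 27.7 ± 0.846 to 50.7 ± 2.40 CPM (log2 fold change 0.87). ITGA9 fell from 35.3 ± 1.53 to 18.6 ± 0.533 CPM (log2 fold change -0.92) with a neighbour median of -0.34. Proteases and their inhibitors went both ways, 14 higher and 12 lower of 29. MMP7, matrilysin, was at 0.333, 0.368, 0.453 and 0.339 CPM in WT and at 3.83, 3.28, 4.03 and 3.05 CPM in ΔDNMT3A (log2 fold change 3.25) beside a neighbour median of 0.30. TIMP1, an inhibitor of metalloproteinases, fell from 15.3, 13.7, 16.6 and 16.5 CPM in WT to 3.40, 3.43, 2.98 and 3.02 CPM in ΔDNMT3A (log2 fold change -2.27, SE 0.0836). Genes of mesenchymal transition were lower in 9 of 18 and higher in 5, with TGFBI at -0.83 and S100A4 at 1.10 on the log2 scale.

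Wnt pathway genes were lower more often than higher, both among components and among targets. Of 49 components tested, 24 were lower (49%) and 17 higher (34.7%), and of 24 targets, 16 were lower (66.7%) and 6 higher (25%), with medians of -0.14 and -0.25. Relative to the neighbour median of each gene, these medians were -0.0435 for components and -0.43 for targets. Among nuclear factors, LEF1 was at 17.9, 18.1, 16.9 and 17.2 CPM in WT and at 7.71, 7.69, 6.87 and 7.34 CPM in ΔDNMT3A (log2 fold change -1.24). TLE4, a corepressor, fell from 4.23 ± 0.347 to 1.57 ± 0.102 CPM (log2 fold change -1.43). TCF7L1 rose from 0.633 ± 0.158 to 1.41 ± 0.137 CPM (log2 fold change 1.18). Among ligands, WNT5A, which acts mostly outside the β-catenin branch, rose from 5.83 ± 0.598 to 20.1 ± 1.49 CPM (log2 fold change 1.79). WNT11 rose from 22.9 ± 1.21 to 37.1 ± 1.69 CPM (log2 fold change 0.69). Of the targets, NKD1, a feedback inhibitor, was at 99.6, 101, 105 and 105 CPM in WT and at 28.9, 27.9, 31.9 and 31.0 CPM in ΔDNMT3A (log2 fold change -1.78). MYCN fell from 23.2 ± 0.826 to 4.87 ± 0.593 CPM (log2 fold change -2.25) with a neighbour median of -0.47. LEF1 and NKD1 were lower in each ΔDNMT3A library than in any WT library. BAMBI rose from 114 ± 1.41 to 145 ± 8.80 CPM (log2 fold change 0.35).

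Notch pathway genes were lower in 13 of 26 and higher in 5. The receptors NOTCH1 and NOTCH3 fell from 11.7 ± 1.05 to 5.96 ± 0.477 CPM (log2 fold change -0.98) and from 30.7 ± 2.55 to 16.7 ± 1.58 CPM (log2 fold change -0.88). NRARP, a feedback target, fell from 10.5 ± 0.814 to 4.69 ± 0.265 CPM (log2 fold change -1.16), while the modifier LFNG rose from 3.82 ± 0.648 to 5.61 ± 0.706 CPM (log2 fold change 0.54). Of 36 genes of TGF-beta and BMP signalling, 20 were lower (55.6%) and 10 higher. SMAD1, a transducer of BMP signals, was at 5.78, 8.10, 7.63 and 6.10 CPM in WT and at 0.963, 1.16, 0.947 and 0.804 CPM in ΔDNMT3A (log2 fold change -2.81, SE 0.140). SMAD6, an inhibitory SMAD, fell from 23.2 ± 0.519 to 11.6 ± 0.511 CPM (log2 fold change -1.002). The target ID3 rose from 4.74 ± 0.421 to 12.7 ± 1.25 CPM (log2 fold change 1.42). The ligand BMP4 rose from 27.6 ± 1.09 to 41.7 ± 3.06 CPM (log2 fold change 0.59). CHRD, the secreted antagonist chordin, rose from 8.06 ± 0.858 to 31.9 ± 1.55 CPM (log2 fold change 1.98) with a neighbour median of 0.49. SMAD1 and ID3, a gene that BMP signals induce in many cells, thus moved in opposite directions.

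In the EGF family, 8 genes were higher and 7 lower of 19. The receptors ERBB2 and ERBB3 fell from 166 ± 6.59 to 85.7 ± 1.97 CPM (log2 fold change -0.96) and from 149.7 ± 3.83 to 68.4 ± 4.02 CPM (log2 fold change -1.13). DUSP4, DUSP5 and DUSP6, phosphatases that ERK signalling induces, rose by log2 fold changes of 1.53, 1.36 and 1.08. YAP and TEAD targets were higher in 12 of 20 (60%) and lower in 5. ANKRD1 rose from 45.6 ± 5.07 to 117 ± 17.6 CPM (log2 fold change 1.37). CCN1 rose from 18.5 ± 0.307 to 42.5 ± 1.79 CPM (log2 fold change 1.20). AXL rose from 6.60 ± 0.301 to 13.9 ± 0.602 CPM (log2 fold change 1.08). LATS2, a kinase that inhibits YAP, fell from 57.5 ± 2.68 to 32.1 ± 1.20 CPM (log2 fold change -0.84).

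Interferon-stimulated genes were higher in 22 of 44 cases (50.0%) and lower in 10 (22.7%), with a median of 0.23, yet their summed level had nearly the same range in both groups (1498 to 1592 CPM in WT, 1497 to 1586 CPM in ΔDNMT3A). HERC5, a ligase for ISG15, was at 2.06, 2.61, 2.07 and 2.22 CPM in WT and at 9.70, 9.54, 8.49 and 9.78 CPM in ΔDNMT3A (log2 fold change 2.08). IFIT2 rose from 0.667 ± 0.154 to 1.85 ± 0.215 CPM (log2 fold change 1.44). MX1, an antiviral GTPase and a classical interferon target, was at 9.29, 9.94, 9.25 and 11.1 CPM in WT and at 1.78, 1.91, 1.83 and 1.88 CPM in ΔDNMT3A (log2 fold change -2.43, SE 0.0959), without overlap. ISG15 fell from 22.4 ± 1.11 to 14.2 ± 0.959 CPM (log2 fold change -0.66). OAS1 fell from 28.6 ± 1.33 to 19.6 ± 2.01 CPM (log2 fold change -0.55). Of 35 genes of interferon signalling, 17 were higher and 8 lower. The kinase JAK2 rose from 1.47 ± 0.139 to 3.33 ± 0.189 CPM (log2 fold change 1.18). IRF5 rose from 0.961 ± 0.175 to 1.66 ± 0.365 CPM (log2 fold change 0.80) with a neighbour median of -0.35. IRF7 and IRF9 fell from 21.6 ± 0.279 to 14.1 ± 0.522 CPM (log2 fold change -0.62) and from 4.25 ± 0.411 to 2.83 ± 0.256 CPM (log2 fold change -0.60).

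Genes of MHC class I presentation were higher in 7 of 25 and lower in 9. NLRC5, their transactivator, rose from 0.610 ± 0.134 to 2.01 ± 0.110 CPM (log2 fold change 1.72). TAP1, a peptide transporter, rose from 4.65 ± 0.193 to 7.10 ± 0.802 CPM (log2 fold change 0.61). TAPBP, tapasin, fell from 56.2 ± 1.99 to 36.9 ± 1.68 CPM (log2 fold change -0.61). TNF and NF-kB genes were higher in 23 of 42 (54.8%) and lower in 8 (19%). BIRC3, an inhibitor of apoptosis that NF-kB induces, was at 3.12, 2.36, 2.68 and 2.84 CPM in WT and at 16.5, 17.6, 14.6 and 14.2 CPM in ΔDNMT3A (log2 fold change 2.51), with every ΔDNMT3A library above every WT library. PTGS2, the inducible cyclooxygenase, rose from 14.2 ± 0.624 to 36.6 ± 2.03 CPM (log2 fold change 1.36). IL18 rose from 20.4 ± 1.06 to 52.1 ± 2.09 CPM (log2 fold change 1.36). CXCL2, a neutrophil chemokine, fell from 1.63 ± 0.152 to 0.855 ± 0.249 CPM (log2 fold change -0.96). RELA, an NF-kB subunit, fell from 22.9 ± 0.899 to 17.0 ± 1.04 CPM (log2 fold change -0.43).

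Cell cycle genes changed by small amounts. Of 44 DNA replication genes, 20 were lower (45.5%), 9 higher and none reached 2-fold. E2F1 fell from 121 ± 3.74 to 79.8 ± 4.12 CPM (log2 fold change -0.60). MCM7 fell from 387 ± 6.07 to 249 ± 8.18 CPM (log2 fold change -0.64) with a neighbour median of -0.40. MCM5 rose from 156 ± 3.09 to 189 ± 9.27 CPM (log2 fold change 0.28). Of 39 mitosis genes, 18 were higher and 13 lower. CENPA, the centromeric histone, rose from 30.3 ± 0.898 to 72.9 ± 1.80 CPM (log2 fold change 1.26), but with a neighbour median of 0.98, and CENPF fell from 387 ± 19.2 to 289.9 ± 10.8 CPM (log2 fold change -0.42). In the list of p53 targets and apoptosis genes, 17 were higher and 16 lower of 38. BCL2 fell from 34.7 ± 0.621 to 10.2 ± 0.483 CPM (log2 fold change -1.76). PMAIP1 fell from 2.96 ± 0.0902 to 0.813 ± 0.196 CPM (log2 fold change -1.87). BMF fell from 62.6 ± 2.42 to 28.9 ± 1.99 CPM (log2 fold change -1.12), so that genes for and against apoptosis were lower, while CDKN1A, the p21 inhibitor, rose from 5.76 ± 0.589 to 10.5 ± 0.901 CPM (log2 fold change 0.86).

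Cholesterol synthesis genes had the largest share of members lower among lists with at least 5 tested. Of 26 tested, 22 were lower (84.6%) and 2 higher, with a median of -0.38, quartiles of -0.50 and -0.28, and no change of 2-fold. Their summed level was 5131 to 5401 CPM in WT and 3871 to 3987 CPM in ΔDNMT3A. HMGCS1, which condenses acetyl-CoA units at the start of the pathway, was at 455, 465, 472 and 461 CPM in WT and at 235, 236, 241 and 251 CPM in ΔDNMT3A (log2 fold change -0.94, SE 0.0271). Its groups did not overlap. CYP51A1, lanosterol demethylase, fell from 47.2 ± 1.78 to 28.1 ± 1.33 CPM (log2 fold change -0.75) with a neighbour median of -0.49. The 2 that rose were INSIG1 and STARD4. INSIG1, which retains the SREBP complex in the endoplasmic reticulum, rose from 79.0 ± 2.37 to 93.3 ± 1.32 CPM (log2 fold change 0.24). STARD4, a sterol carrier, rose from 138 ± 0.992 to 183 ± 4.003 CPM (log2 fold change 0.40).

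Glycolysis and hypoxia genes were higher in 23 of 38 (60.5%) and lower in 9. HK2 rose from 35.9 ± 1.499 to 64.2 ± 3.49 CPM (log2 fold change 0.84). EPAS1, a hypoxia-inducible factor, rose from 39.5 ± 0.727 to 78.9 ± 1.87 CPM (log2 fold change 0.999) with a neighbour median of 0.63. PFKFB4 fell from 15.6 ± 1.05 to 8.13 ± 1.12 CPM (log2 fold change -0.94) with a neighbour median of -0.34. Subunits of oxidative phosphorylation were higher in 32 of 63 (50.8%) and lower in 11 (17.5%), by small amounts (median 0.080, no change of 2-fold). CYCS, cytochrome c, rose from 298 ± 6.90 to 423 ± 8.41 CPM (log2 fold change 0.50). UQCRC1, of complex III, fell from 232 ± 9.77 to 185 ± 2.48 CPM (log2 fold change -0.33) with a neighbour median of -0.35.

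Of 49 xenobiotic and antioxidant genes, 27 were higher (55.1%) and 12 lower. ABCG2, an apical efflux pump, was at 27.6, 31.0, 29.9 and 28.8 CPM in WT and at 72.8, 70.8, 64.2 and 69.4 CPM in ΔDNMT3A (log2 fold change 1.25). SULT1E1, the estrogen sulfotransferase, fell from 3.20 ± 0.692 to 0.772 ± 0.186 CPM (log2 fold change -2.05). CYP1A1 fell from 35.1 ± 1.68 to 10.99 ± 0.320 CPM (log2 fold change -1.68). UGT1A6 and UGT1A1 had log2 fold changes of 1.67 and 1.21 but share exons, so that their counts cannot be assigned with certainty. Genes of the unfolded protein response and heat shock were higher in 18 of 31 and lower in 11, and none reached 2-fold. ATF3 rose from 7.91 ± 0.354 to 11.4 ± 1.84 CPM (log2 fold change 0.53). ERN1, the sensor IRE1, rose from 16.5 ± 0.956 to 23.3 ± 0.542 CPM (log2 fold change 0.50). ASNS, asparagine synthetase, fell from 395 ± 7.81 to 253 ± 8.996 CPM (log2 fold change -0.64) with a neighbour median of -0.42.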

How the data were processed

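Total RNA of Caco-2 cells had been sequenced as stranded read pairs. The authors trimmed the reads with Trim Galore 0.4.4, aligned them to GRCh38 with STAR 2.5.2b and counted reverse-strand read pairs per gene with featureCounts 1.5.2, and the deposited values are these raw counts for 58051 gene identifiers. Of these identifiers, 98.1% were matched to a symbol. Groups and replicate numbers were taken from the labels. The 8 libraries were analysed in R 4.3.3 with edgeR 4.0.16. After filterByExpr and TMM scaling, each gene was given the quasi-likelihood F test on the group alone, with Benjamini-Hochberg adjustment over 16654 genes and a threshold of 0.05. A level of 3 counts was the floor. The other 7 Caco-2 libraries entered only the isoform values on chromosome 2 and 1 alternative, and the 8 mouse libraries were not used.

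The members and the gene lists were chosen with earlier results of these data known. Named genes were the DNMT genes and CD4, the 12 highest and 12 lowest protein-coding genes (mean of at least 10 CPM), the 5 largest gains and losses in CPM, up to 3 members at each end of a list (mean of at least 1 CPM, groups without overlap), any member of a list with at most 15 tested, genes at the floor in 1 group, and genes within 1 Mb of DNMT3A. Some genes that met these rules are not reported here. Start windows came from RefSeq (11509 tested genes matched) for the printed sequences and from the genome for CpG classes (99.0% of tested genes). The fit was tested on simulated data. DESeq2 1.42.0, other filters and scalings, a replicate block, single replicates left out, single sequencing lanes (lane 5 held replicates 1 and 2, lane 6 replicates 3 and 4, as written in the count headers), and length and GC trends were tried as alternatives. Values relative to neighbours and without chromosome 2 were added after the data had been seen. Tables were handled with Python 3.11.15 and pandas 2.3.3.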

Additional observations from a re-analysis of the deposited data

Results flagged for a closer look

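For each gene named above with a test, the 4 libraries of a group were searched for 1 library far from the other 3, meaning that its gap to the nearest of them took more of the group's range than the critical value of Dixon's test for 4 samples. Of 422 such groups of 4 libraries, 18 were picked out, and chance alone picks about 1 in 20. In WT replicate 2, CD14 was at 20.2 CPM where the other WT libraries had 22.7 to 22.8, ESPN was at 15.8 CPM, ITGA9 at 33.0 CPM, HADHA at 248 CPM, PMAIP1 at 3.09 CPM and STARD4 at 139.8 CPM. In WT replicate 1, DTNB was at 5.93 CPM beside 7.18 to 7.37 in the others, HADHB at 141 CPM and KRT4 at 3.81 CPM. In WT replicate 3, ANXA1 was at 3.78 CPM beside 4.51 to 4.59, and the 1 count of NDP in any WT library gave 0.0323 CPM. In WT replicate 4, DNMT3B was at 149.6 CPM beside 152.1 to 152.4, and the 1 count of ZBED2 in any WT library gave 0.0261 CPM. In ΔDNMT3A, CXCL2 was at 0.482 CPM in replicate 1 beside 0.972 to 0.984 in the others, KRT23 at 2.65 CPM in replicate 2, SULT1E1 at 1.05 CPM in replicate 3, and MUC13 at 4.66 CPM and TAPBP at 34.4 CPM in replicate 4. Each of these genes kept its direction and its side of the threshold without the library in question.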

How the results depend on the processing

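The number of genes past the threshold was 10367 and lay between 8327 and 10749 under DESeq2 (9623), RLE scaling, no filter, a filter of at least 1 CPM in 4 libraries, a fit of all Caco-2 libraries, each lane alone (8870 in lane 5, 8327 in lane 6), the length and GC trends and single replicates left out (9898 to 10235). It was 1418 (787 higher, 631 lower) with a log2 fold change of at least 1 beside the adjusted p, and 777 (436 higher, 341 lower) with edgeR's test against a log2 fold change of 1. The count at 2-fold, 1418, was 2201 with no filter, 920 with at least 1 CPM in 4 libraries and 777 with that test. Same-numbered WT and ΔDNMT3A libraries did not deviate together throughout (correlations 0.212, 0.076, 0.214 and 0.028), so the numbers were not taken as pairs, and the fit with the replicate block gave 5297 higher and 5271 lower genes. Replicates 2 and 4 of both groups correlated best with another number. The log2 fold change of DNMT3A lay between -1.75 and -1.56 over all alternatives. Of the 211 genes followed, none past the threshold changed sign, while DNMT1 (-0.042 to 0.0045) and DNMT3L (-0.14 to 0.87), which did not pass, did. Besides the size thresholds, 13 values of 7 genes lost significance: HOXA6 in DESeq2, without a filter, without WT replicate 2 or ΔDNMT3A replicate 1 and in each lane, and CDX2, EFR3B, IRF5, PAGE4, S100P and TDG in single lanes. UHRF2 passed the threshold under 3. The medians on chromosome 2 stayed within -0.49 to -0.42, 1.13 to 1.17 and 0.48 to 0.53. The balance of higher and lower members turned with the length trend removed for tight junction genes, and for adherens junction genes also in lane 6. The sign of medians near 0 turned under some settings for 8 lists, namely germline, lipid absorption, transporter, tight junction, adherens junction, MHC class I, mitosis and neural genes. The cause of these changes was not tested. Depth limits genes of low level, since the median SE was 0.25 in the set of genes with the lowest means.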

Other observations

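Among the 13 colonocyte line markers tested, 8 were higher and 2 lower in ΔDNMT3A, and the median log2 fold change was 0.17, or 0.077 relative to the medians of neighbouring genes. Of 10 endothelial markers 2 were tested and 1 was higher, VWF, while PECAM1 did not pass the threshold. CDH5, KDR and TEK were too low for a test. Of 10 neural markers 2 were tested, SYP lower and TUBB3 higher, and their summed level was 3.31 to 4.98 CPM in WT and 3.05 to 3.62 CPM in ΔDNMT3A.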
